A study of Mus musculus with 8 samples.

Results

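Hox cluster genes were followed through an RNA immunoprecipitation (IP) of DAZL, on arrays that measured the RNA of 4 groups. The members were all array probes of genes whose name in the deposited array files was Hox followed by a cluster letter (a to d) and a number. This gave 49 of 41174 probes, standing for 38 of 27677 genes. The RefSeq gene table lists 39 genes of this form, and Hoxc11 had no probe of that name. That rule reads gene names and no measured value.

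V6.5 mouse embryonic stem cells of mixed C57BL/6 and 129SV background, with GFP and V5 tags on Dazl, were depleted of feeder cells and differentiated for 12 days into cultures labelled as primordial germ cells. Lysates were not crosslinked with ultraviolet light. V5 IP used an antibody against the V5 tag, GFP IP an antibody against GFP, mock IP normal mouse IgG, and input was total RNA of the lysate, with 2 one-colour arrays in each group. All 4 groups came from the same tagged line, so none of them lacks the fusion protein. As far as the labels say, the IPs differ in the antibody alone, and input had no IP. The sources used here do not say whether the 2 replicates of a group came from separate cultures, so the p-values speak only of array-to-array spread, part of which may be technical.

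Hox genes encode homeodomain transcription factors that set position along the body axis, and in mammals they lie in the HoxA, HoxB, HoxC and HoxD clusters. Genes at one end of a cluster (low paralog numbers) are switched on early and act in anterior regions, and genes at the other end (high paralog numbers) act later and in posterior regions such as the lower trunk, limb tips and genital tract. In mouse primordial germ cells the somatic Hox programme is known to be repressed as the germ cell fate is set. DAZL is a germ cell RNA-binding protein that attaches to messenger RNAs and acts on their translation. In what follows, paralog groups 1 to 3 are called anterior, 4 to 8 central and 9 to 13 posterior. Where it gives a position, the authors' deposited table places the HoxA probes on chromosome 6, HoxB on chromosome 11, HoxC on chromosome 15 and HoxD on chromosome 2.

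Across all probes, 61.3% to 70.5% were well above background on an array, by the scanner software's own flag. The array signal at the 75th percentile was 363 units on mock IP replicate 1 and 665 to 1170 units on the other 7 arrays. Of the germ cell marker list, 9 of 10 genes were well above background on both input arrays, and Prdm14 had no probe of that name. The same held for 7 of 7 pluripotency markers, 8 of 8 fibroblast markers, 7 of 8 trunk mesoderm markers and 6 of 8 neural markers, so the input also held RNA of genes that mark other cell types. The first replicates shared 1 slide and the second replicates another, and each group kept its place on both slides, so place on the slide and group cannot be told apart.

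Detection of Hox probes was sparse in every group. On both arrays of the group, 23 of 49 probes (46.9%) were well above background in the V5 IP, 23 in the GFP IP, 19 (38.8%) in the mock IP and 18 (36.7%) in input. The same shares over all probes were 62.1% in the V5 IP, 60.6% in the GFP IP, 59.5% in the mock IP and 66.3% in input. Counted on at least 1 array of a group, the Hox probes numbered 26 in the V5 IP, 27 in the GFP IP, 26 in the mock IP and 25 in input, so that the groups differed by 2 probes at most. Between 19 and 27 Hox probes were detected on a single array, 17 probes were detected on all 8 arrays and 19 on none. No Hox probe was saturated. The groups were not tested against each other for detection, since the probes of 1 array are not replicates.

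By position, 10 of 20 posterior probes were detected on both arrays in the V5 IP, 10 in the GFP IP, 8 in the mock IP and 7 in input. For anterior probes the count was 3 of 11 in every group. Among central probes it was 10 of 18 in the V5 IP, 10 in the GFP IP, 8 in the mock IP and 8 in input. Counted on at least 1 array, central probes ran the other way, with 11 in the V5 IP, 11 in the GFP IP, 12 in the mock IP and 12 in input, while posterior probes numbered 11 in the V5 IP, 12 in the GFP IP, 10 in the mock IP and 9 in input. By cluster, HoxD had 5 of 12 probes on both arrays in the V5 IP, 5 in the GFP IP, 4 in the mock IP and 2 in input. On at least 1 array that order turned round, with 5 HoxD probes in the V5 IP, 5 in the GFP IP, 6 in the mock IP and 7 in input. On both arrays, HoxB had 8 of 14 probes in the V5 IP, 8 in the GFP IP, 7 in the mock IP and 8 in input. HoxA had 6 of 14 probes in the V5 IP, 6 in the GFP IP, 5 in the mock IP and 5 in input. HoxC had 4 of 9 probes in the V5 IP, 4 in the GFP IP, 3 in the mock IP and 3 in input.

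**Figure D1:**
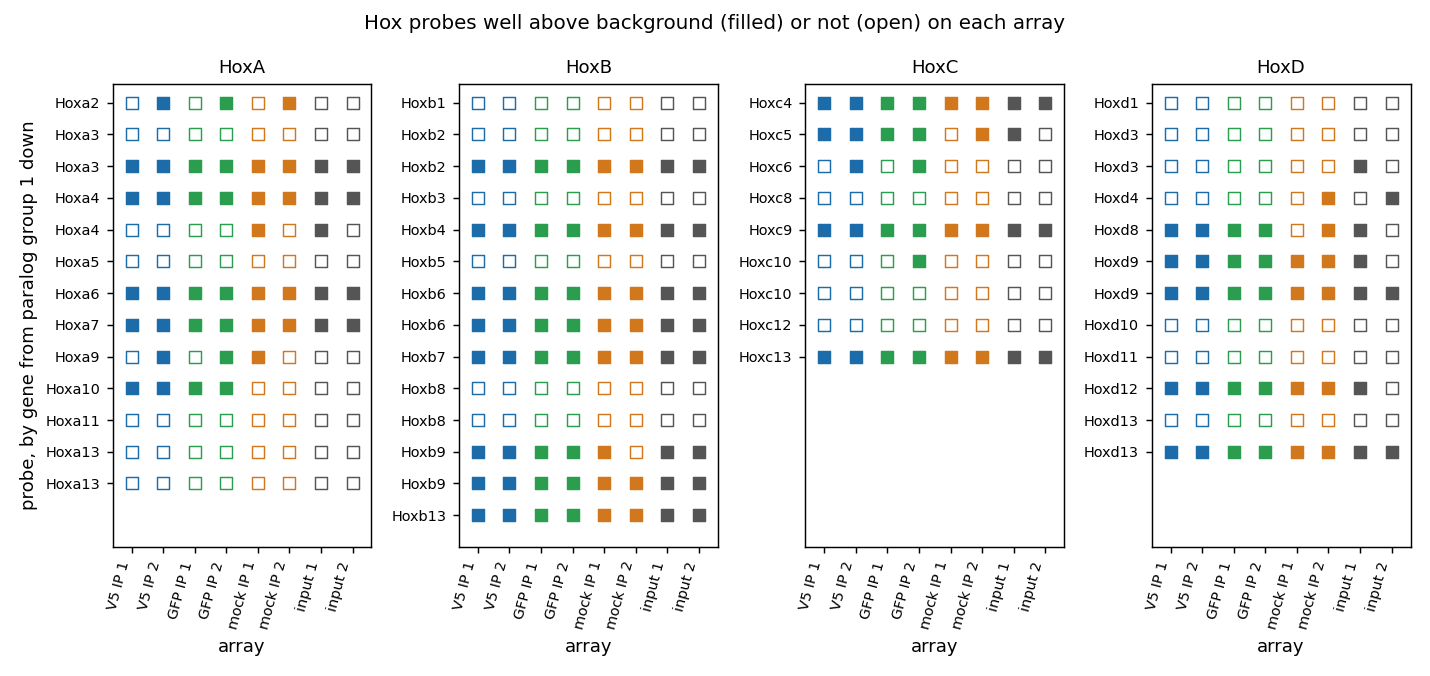
Each square is 1 of 48 Hox probes (rows, by cluster and paralog group) on 1 array (columns), filled where the probe was well above background and open where it was not. Most of these probes were filled on all 8 arrays (16) or open on all (19), and Hoxa10 was filled on the 4 DAZL IP arrays and open on the 4 mock IP and input arrays.

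Of the 38 genes, 20 had a probe that passed the filter (well above background on both arrays of 1 group or more) and were tested. The other 18 comprised 12 genes detected on no array (Hoxa5, Hoxa11, Hoxa13, Hoxb1, Hoxb3, Hoxb5, Hoxb8, Hoxc8, Hoxc12, Hoxd1, Hoxd10 and Hoxd11) and 6 detected on some array (Hoxa2, Hoxa9, Hoxc6, Hoxc10, Hoxd3 and Hoxd4). The tested genes were 6 of 11 in HoxA, 6 of 10 in HoxB, 4 of 8 in HoxC and 4 of 9 in HoxD. They were 3 of 8 anterior, 9 of 15 central and 8 of 15 posterior genes. Hoxa10, Hoxc5 and Hoxd8 passed the filter through the DAZL IPs alone, because they were detected on no more than 1 array of mock IP and of input. These 3 could be tested only because they were detected in the DAZL IPs, and counts are therefore also given over the 17 other genes. Hoxb1, an early hindbrain gene, was spotted 10 times on each array, and no array had more than 1 of its spots well above background.

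Values below are log2 signals relative to the array's 75th percentile, so 0 is the level at that percentile of gene spots. Signals of the tested Hox genes were below 0 on every array, except for Hoxb6 on mock IP replicate 1. Among the tested probes with the highest mean input signal were those of Hoxb6, Hoxc4, Hoxa3, Hoxb9 and Hoxb7. Since probes differ in brightness, this order is not an order of transcript abundance. Hoxb6, a gene of the trunk and lateral plate mesoderm, had -0.05 and -0.95 in the V5 IP, -0.08 and -0.95 in the GFP IP, 0.72 and -0.22 in the mock IP and -1.61 and -1.88 in input. Hoxa3, a gene of the pharyngeal arches needed for the thymus, had -2.44 and -3.09 in the V5 IP, -2.60 and -3.23 in the GFP IP, -2.29 and -2.87 in the mock IP and -2.64 and -3.15 in input. Hoxb7 had -4.15 and -4.28 in the V5 IP, -3.94 and -4.18 in the GFP IP, -3.85 and -4.12 in the mock IP and -4.27 and -4.09 in input. The Hoxa3 and Hoxb7 values of all groups overlapped or nearly touched, while Hoxb6 was lower in input than in every IP group.

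**Figure D2:**
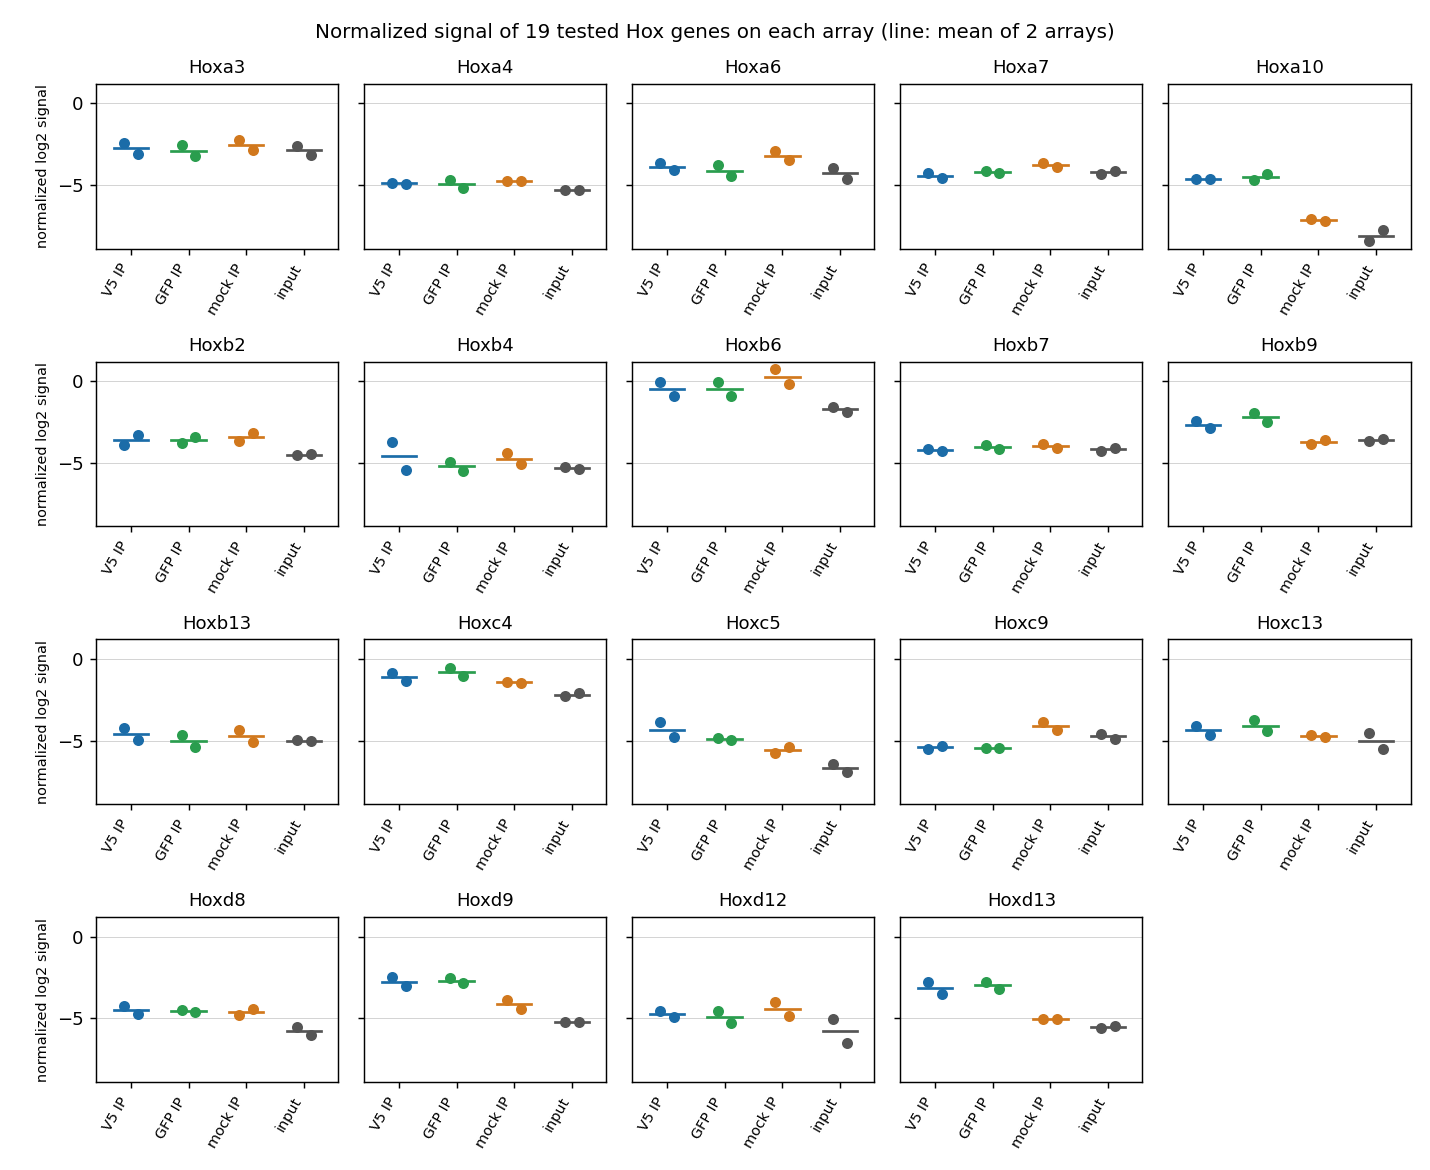
Normalized log2 signal (0 is the array's 75th percentile) of the probe standing for 19 of the 20 tested Hox genes, with 1 point per array and a line at the mean of the 2 arrays of V5 IP, GFP IP, mock IP and input. Hoxa10, Hoxd9 and Hoxd13 lie higher in both DAZL IPs than in the mock IP and input without overlap, and Hoxc9 lies lower.

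The comparison of each DAZL IP with mock IP asks which RNAs came down with the tagged protein rather than with IgG. Posterior Hox genes made up most of the calls against mock IP. In the V5 IP, 5 of 20 tested Hox genes were higher than in the mock IP (Hoxa10, Hoxd13, Hoxd9, Hoxc5 and Hoxb9) and 1 was lower (Hoxc9), by limma at an adjusted p under 0.05. Over all 19032 tested genes, 14.5% were called higher and 21.7% lower in this comparison. In the GFP IP, 4 were higher (Hoxa10, Hoxd13, Hoxb9 and Hoxd9) and 1 was lower (Hoxc9), where 16.3% of all genes were called higher and 26.6% lower. The Hox shares lay above these for higher calls and below them for lower calls, over only 20 genes, and that difference was not tested. Over the 17 genes that did not pass the filter through the DAZL IPs alone, 3 were higher and 1 was lower in each IP. Of all genes chosen the same way, 14.4% were higher and 22.1% lower in the V5 IP, and 16.1% were higher and 27.0% lower in the GFP IP, so that the count of higher Hox genes was near the share of all genes.

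By position, limma called 4 of 8 posterior genes higher and 1 lower in both IPs against mock IP. Of the 9 central genes, 1 was higher in the V5 IP and 0 in the GFP IP, and at an unadjusted p under 0.05 there were 1 higher and 1 lower in the V5 IP and 0 higher and 1 lower in the GFP IP. Without the genes that passed the filter through the DAZL IPs alone, limma called 3 of 7 posterior genes higher and 1 lower in each IP, and 0 of 7 central genes in either. Of the 3 anterior genes, 0 were called in either IP, with 1 higher at an unadjusted p under 0.05 in each. With the slide as a block, 1 anterior gene was called higher in the GFP IP and 0 in the V5 IP. Central genes under that fit were 1 higher and 3 lower in the V5 IP, and 0 higher and 2 lower in the GFP IP. Its posterior calls were 4 higher and 1 lower in the V5 IP, and 5 higher and 1 lower in the GFP IP. The blocked shares of all genes were 19.3% higher and 38.8% lower in the V5 IP, and 20.8% and 40.2% in the GFP IP. Without the block, 17.7% of all genes were higher and 32.8% lower in the V5 IP at an unadjusted p under 0.05. These unadjusted shares were 18.9% and 34.6% in the GFP IP. The median log2 fold change of the tested posterior genes was 0.70 in the V5 IP and 1.05 in the GFP IP over mock IP. It was -0.15 and -0.17 for central genes and -0.17 and -0.17 for anterior genes. Without the genes that passed through the DAZL IPs alone, the central median was -0.23 in the V5 IP and -0.42 in the GFP IP. The posterior median was then 0.34 in the V5 IP and 0.64 in the GFP IP. With no filter on dim probes its sign turned, and over all 15 posterior genes the median was -0.29 in the V5 IP and -0.47 in the GFP IP, against -0.53 and -0.34 over all genes. The unfiltered medians were -0.22 and -0.32 for anterior genes and -0.52 and -0.32 for central genes. Posterior genes thus no longer had the highest median in either IP. The median of all tested genes was -0.45 in the V5 IP and -0.44 in the GFP IP over mock IP, so a Hox gene at 0 lay above the middle gene of the array. When the values were centred on that median, the calls for Hox genes numbered the same (5 higher and 1 lower in the V5 IP, 4 higher and 1 lower in the GFP IP), while the shares of all genes called became 14.9% higher and 8.18% lower in the V5 IP and 17.6% higher and 15.1% lower in the GFP IP. The V5 and GFP comparisons share the mock IP arrays and are not independent of each other, and the difference between position classes was not tested.

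**Figure D3:**
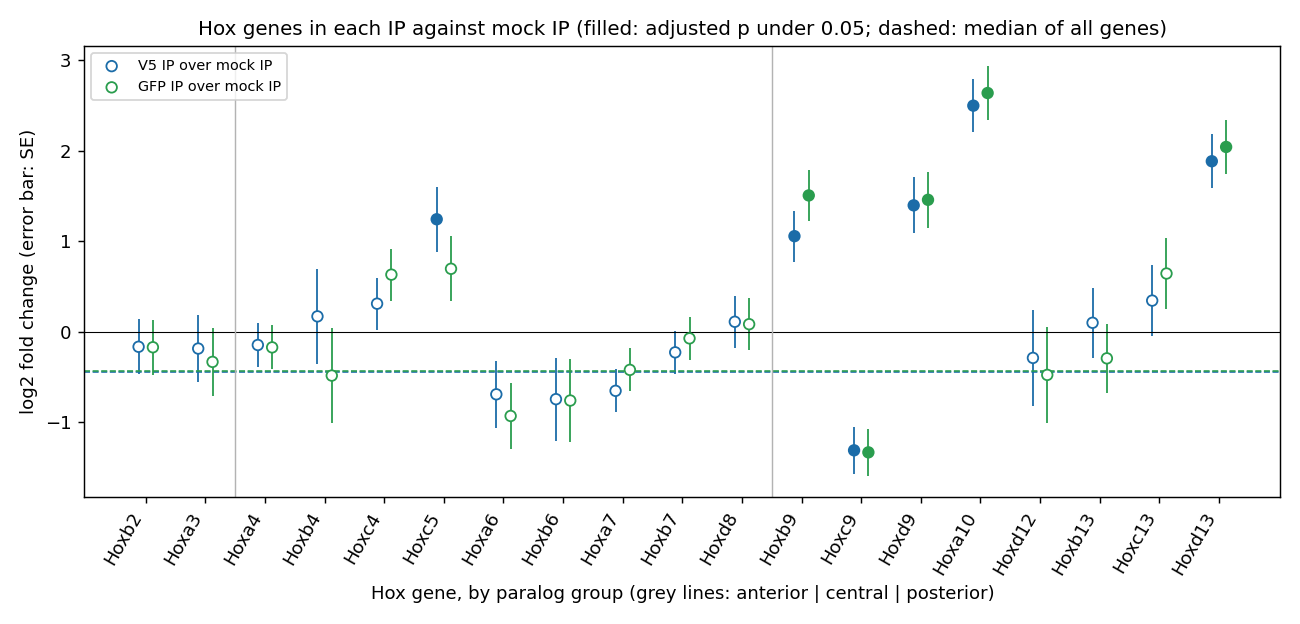
Log2 fold change of 19 of the 20 tested Hox genes over mock IP (vertical axis, error bars are the SE of the fit), with V5 IP left of GFP IP for each gene and genes ordered by paralog group. Filled points passed an adjusted p under 0.05, dashed lines mark the medians of all genes (-0.45 and -0.44), and most filled points lie among the posterior genes on the right.

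Hoxd13, which patterns digits and the external genitalia, had -2.80 and -3.49 in the V5 IP, -2.79 and -3.19 in the GFP IP, -5.02 and -5.04 in the mock IP and -5.58 and -5.44 in input. All 4 DAZL IP arrays lay above all 4 mock IP and input arrays, and the probe was well above background on all 8. The log2 fold change over mock IP was 1.88 ± 0.30 in the V5 IP (SE, 3.69-fold, limma adjusted p = 0.00627) and 2.04 ± 0.30 in the GFP IP (SE, 4.12-fold, limma adjusted p = 0.00409). Both calls were kept when any 1 of the 8 arrays was left out, with a highest adjusted p of 0.0488 in the V5 IP. A second Hoxd13 probe was well above background on no array.

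Hoxa10, a gene of the lumbar skeleton and the uterus, had -4.64 and -4.66 in the V5 IP, -4.70 and -4.31 in the GFP IP, -7.07 and -7.22 in the mock IP and -8.43 and -7.75 in input. It was well above background on all 4 DAZL IP arrays and on none of the mock IP and input arrays. Its processed intensities were low throughout, with 27.0 and 46.4 units in the V5 IP, 25.5 and 55.9 in the GFP IP, 2.7 and 5.3 in the mock IP and 2.89 and 5.17 in input. Because the control level is only bounded, the signal was at least 1.92-fold higher in the V5 IP and at least 2.12-fold higher in the GFP IP than in the mock IP. The limma adjusted p = 0.00266 (V5 IP) and 0.00196 (GFP IP) are not tests of these bounds. They rest on mock IP values below detection, in a gene that entered the main test only through the DAZL IPs. The RefSeq table places another gene, Gm52902, over part of Hoxa10, and which of them the probe reads was not tested.

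Hoxd9, a gene of the forelimb and the lumbosacral region, had -2.45 and -3.04 in the V5 IP, -2.53 and -2.84 in the GFP IP, -3.85 and -4.44 in the mock IP and -5.24 and -5.20 in input. The DAZL IP arrays again lay above the mock IP arrays without overlap. The log2 fold change over mock IP was 1.40 ± 0.31 in the V5 IP (SE, limma adjusted p = 0.0197) and 1.46 ± 0.31 in the GFP IP (SE, limma adjusted p = 0.0128). A second Hoxd9 probe gave 1.34 in the V5 IP and 1.38 in the GFP IP (limma adjusted p = 0.0435 and 0.0344 with each probe fitted on its own). The call was lost without V5 IP replicate 1 in the first comparison (adjusted p = 0.104) and without GFP IP replicate 1 in the second (adjusted p = 0.0781).

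Hoxb9, which acts in the thoracic skeleton, had -2.48 and -2.87 in the V5 IP, -1.95 and -2.49 in the GFP IP, -3.86 and -3.60 in the mock IP and -3.68 and -3.55 in input. Both DAZL IPs lay above mock IP and input without overlap. The log2 fold change over mock IP was 1.06 ± 0.28 in the V5 IP (SE, limma adjusted p = 0.0284) and 1.51 ± 0.28 in the GFP IP (SE, limma adjusted p = 0.00946). The call in the V5 IP was lost in 4 of the 8 fits that left out 1 array (V5 IP 1, mock IP 1, input 1 or input 2), with a highest adjusted p of 0.138, and the call in the GFP IP without GFP IP replicate 1 (adjusted p = 0.069). A second Hoxb9 probe did not follow the first: its difference from mock IP was -0.44 in the V5 IP and -0.41 in the GFP IP. That probe had intensities of 16.4 and 46.4 in the V5 IP, 19.7 and 37.6 in the GFP IP, 57.7 and 8.79 in the mock IP and 14.5 and 22.6 in input. The 2 mock IP arrays differed more for this probe than the replicates of any other group did, and the mean of both probes was not called in either IP.

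**Figure D4:**
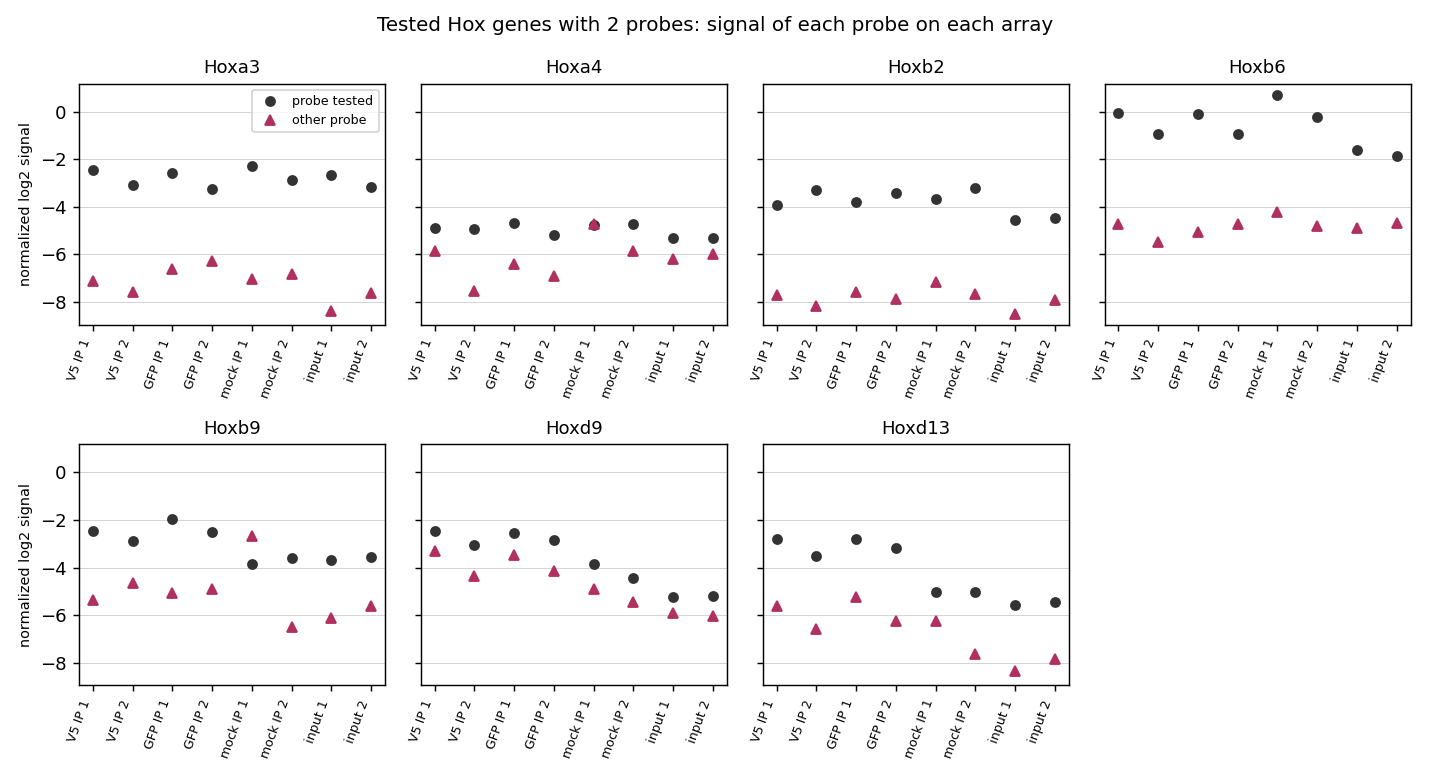
Normalized log2 signal on each of the 8 arrays for the 7 tested Hox genes with a second probe, with the tested probe as circles and the other probe as triangles. The 2 probes of Hoxd9 both lie higher on the DAZL IP arrays than on the mock IP and input arrays, whereas the second probe of Hoxb9 peaks on mock IP replicate 1 and that of Hoxb6 does not drop in input.

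Hoxc5, a gene of the neck region, was called in the V5 IP and not in the GFP IP. It had -3.89 and -4.80 in the V5 IP, -4.85 and -4.93 in the GFP IP, -5.78 and -5.39 in the mock IP and -6.40 and -6.94 in input, and it was well above background on 1 of 2 mock IP arrays and 1 of 2 input arrays. The log2 fold change over mock IP was 1.24 ± 0.36 in the V5 IP (SE, limma adjusted p = 0.0343) and 0.69 ± 0.36 in the GFP IP (SE, limma adjusted p = 0.149). The difference between the DAZL IPs was not tested. The V5 IP call was lost in 5 of 8 fits without 1 array (V5 IP 1, mock IP 1 or 2, input 1 or 2), with a highest adjusted p of 0.166. In the RefSeq table the microRNA gene Mir615 overlaps Hoxc5. Mock IP replicate 1, on the first slide, was the mock IP array on which the probe was not well above background, and on the second slide V5 IP lay 0.59 above mock IP.

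Hoxc9, which sets thoracic motor neuron identity, was the tested Hox gene called lower. It had -5.50 and -5.33 in the V5 IP, -5.43 and -5.44 in the GFP IP, -3.85 and -4.36 in the mock IP and -4.57 and -4.88 in input. Both DAZL IPs lay below mock IP and below input without overlap. The probe was well above background on all 8 arrays, but its processed intensities were low. They were 14.9 and 29 units in the V5 IP, 15.4 and 25.5 in the GFP IP, 25.2 and 38.6 in the mock IP and 42 and 37.6 in input. The lowest intensity of any detected probe was 11.4 on V5 IP replicate 1 and 12.3 on GFP IP replicate 1. In the RefSeq table another gene, Gm36878, overlaps Hoxc9. The log2 fold change over mock IP was -1.31 ± 0.26 in the V5 IP (SE, limma adjusted p = 0.0152) and -1.34 ± 0.26 in the GFP IP (SE, limma adjusted p = 0.0107). The call was lost without V5 IP 1 or mock IP 1 (highest adjusted p = 0.0871) in the V5 IP and without GFP IP 1 (adjusted p = 0.0659) in the GFP IP. Over input, the log2 fold change of Hoxc9 was -0.69 ± 0.26 in the V5 IP (SE, limma adjusted p = 0.0884) and -0.71 ± 0.26 in the GFP IP (SE, limma adjusted p = 0.0735), and neither passed the test. It did pass with the slide as a block (adjusted p = 0.0418 in the V5 IP and 0.0344 in the GFP IP).

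Cell type markers also differed between the DAZL IPs and mock IP. Of 9 tested germ cell markers, 4 were higher and 2 lower in each DAZL IP by limma, and of 7 pluripotency markers, 3 were higher and 0 lower, where 14.5% (V5 IP) and 16.3% (GFP IP) of all genes were higher and 21.7% and 26.6% lower. Summed over the germ cell markers, the signal relative to the 75th percentile ran from 98.1 to 148 in the V5 IP, 112 to 152 in the GFP IP, 53.0 to 61.8 in the mock IP and 62.4 to 66.1 in input. The pluripotency sums ran from 169 to 270 in the V5 IP, 178 to 265 in the GFP IP, 81.0 to 83.0 in the mock IP and 100.04 to 106 in input. Of 8 fibroblast markers, 0 were called higher and 3 lower in each DAZL IP against mock IP, and their summed signal ran from 6.96 to 8.63 in the V5 IP, 6.97 to 7.93 in the GFP IP, 12.2 to 26.7 in the mock IP and 11.6 to 13.3 in input. Of 7 tested trunk mesoderm markers, 0 were higher in either IP, 4 were lower in the V5 IP and 5 in the GFP IP, with sums of 5.09 to 5.66 in the V5 IP, 4.62 to 4.86 in the GFP IP, 8.41 to 15.4 in the mock IP and 6.56 to 6.65 in input. The mesoderm sum mostly follows Tcf15, which had log2 signals of 2 to 3.81 over the arrays, while the other tested mesoderm markers lay below 0 on every array. The neural sums lay at 8.56 to 19.5 in the V5 IP, 9.50 to 18.1 in the GFP IP, 5.47 to 6.09 in the mock IP and 2.85 to 4.26 in input, and 1 of 6 tested neural markers was higher and 0 lower in each DAZL IP. Tubb3, which was not called against mock IP, made up 54.8% to 93.4% of the neural sum on an array, and without it the sums were 1.29 and 2.34 in the V5 IP, 1.28 and 2.22 in the GFP IP, 0.49 and 1.98 in the mock IP and 0.51 and 1.93 in input. Meox1 (mesoderm) and Neurod1 (neural) were not well above background on both input arrays. The part of these cells in the Hox values was not tested, and in bulk RNA fewer cells of a type and less RNA per cell cannot be told apart.

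The tested Hox genes with no call against mock IP included several that lay lower. Hoxa6, a central trunk gene, had -3.69 and -4.12 in the V5 IP, -3.80 and -4.49 in the GFP IP, -2.93 and -3.49 in the mock IP and -3.97 and -4.63 in input. Its log2 fold change over mock IP was -0.69 ± 0.37 in the V5 IP (SE, limma adjusted p = 0.166) and -0.93 ± 0.37 in the GFP IP (SE, limma adjusted p = 0.0749). With the slide as a block the adjusted p was 0.0192 in the V5 IP and 0.00578 in the GFP IP. Hoxb6 had -0.75 ± 0.46 in the V5 IP and -0.76 ± 0.46 in the GFP IP (SE, limma adjusted p = 0.219 and 0.206), with 0.0273 and 0.0233 under the slide block. Hoxa7 lay at -0.66 ± 0.24 in the V5 IP (SE, limma adjusted p = 0.0634, and 0.0302 under the slide block). The median of all genes was itself below 0 in both comparisons.

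Other genes with no call against mock IP lay on both sides of 0. Hoxd12, a limb gene, lay at -0.29 ± 0.53 in the V5 IP and -0.48 ± 0.53 in the GFP IP over mock IP, and Hoxb4, known for its use in blood stem cells, at 0.17 ± 0.53 in the V5 IP and -0.49 ± 0.53 in the GFP IP (SE). These genes overlapped between groups. Hoxc13, a gene of hair and nails, had 0.64 ± 0.39 in the GFP IP over mock IP (SE, limma adjusted p = 0.211), and it passed with the slide as a block (adjusted p = 0.0448). With the slide as a block, V5 IP against mock IP gave 5 Hox genes higher and 4 lower, where 19.3% of all genes were called higher and 38.8% lower. GFP IP against mock IP gave 6 higher and 3 lower, where 20.8% were called higher and 40.2% lower.

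The comparison with input asks how each pull-down differed from the lysate it came from. In the V5 IP, 8 of 20 tested Hox genes were higher than in input and 0 were lower by limma (13.9% and 14.3% of all genes). They included Hoxa10, Hoxd9, Hoxd13, Hoxc5, Hoxd8, Hoxc4 and Hoxb9. The same 8 were higher and 0 lower in the GFP IP, where 15.8% of all genes were called higher and 17.2% lower. At an unadjusted p under 0.05, 10 were higher and 1 lower in the V5 IP, and 11 were higher and 1 lower in the GFP IP, where 18.6% and 22.5% (V5 IP) and 19.9% and 24.6% (GFP IP) of all genes were higher and lower. The 2 comparisons share the input arrays. Over the 17 genes that did not pass the filter through the DAZL IPs alone, 5 were higher and 0 lower in each, where 13.6% (V5 IP) and 15.5% (GFP IP) of genes chosen the same way were higher. By position, 1 of 3 anterior, 3 of 9 central and 4 of 8 posterior genes were called higher over input in each DAZL IP. Without the genes that passed through the DAZL IPs alone, these were 1 of 3, 1 of 7 and 3 of 7. The anterior, central and posterior medians were 0.91, 0.74 and 0.99 in the V5 IP. In the GFP IP they were 0.90, 0.38 and 1.17. Leaving out the genes that passed through the DAZL IPs alone, these medians were 0.91, 0.40 and 0.94 in the V5 IP. They were then 0.90, 0.16 and 0.94 in the GFP IP, and the difference between position classes was not tested. The median log2 fold change of the tested Hox genes was 0.93 in the V5 IP and 0.92 in the GFP IP, against medians of -0.13 and -0.12 over all tested genes. With no filter on dim probes, the medians over all 38 Hox genes were 0.37 in the V5 IP and 0.42 in the GFP IP, against 0.05 and 0.08 over all genes. The rise over input did not hold under the alternative background correction described below (normexp). With it, the medians of the tested Hox genes were -0.60 in the V5 IP and 0.06 in the GFP IP, against -0.47 and -0.18 over all tested genes.

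Hoxa10 was at least 3.26-fold higher in the V5 IP (limma adjusted p = 0.00212) and at least 3.59-fold higher in the GFP IP (limma adjusted p = 0.00181) than in input. It passed the filter through the DAZL IPs alone and was well above background on no input array. Its p-values therefore rest on control values below detection, in a gene that could be tested only through the DAZL IPs. Hoxd9 had a log2 fold change over input of 2.48 ± 0.31 in the V5 IP and 2.54 ± 0.31 in the GFP IP (SE, limma adjusted p = 0.00263 and 0.00219). Hoxd13 had 2.37 ± 0.30 in the V5 IP and 2.53 ± 0.30 in the GFP IP (SE, limma adjusted p = 0.00262 and 0.00204). Hoxd9 and Hoxd13 kept their calls against input in both DAZL IPs when any 1 array was left out. Hoxc5 had 2.33 ± 0.36 in the V5 IP and 1.78 ± 0.36 in the GFP IP (SE, limma adjusted p = 0.00466 and 0.00957). It was one of the genes that passed the filter through the DAZL IPs alone, with 1 of 2 input arrays well above background, and the GFP IP call was lost without input replicate 2 (adjusted p = 0.0752). Hoxc4, a gene of the neck and upper thorax, had -0.89 and -1.39 in the V5 IP, -0.55 and -1.09 in the GFP IP, -1.44 and -1.46 in the mock IP and -2.30 and -2.12 in input. Its log2 fold change over input was 1.07 ± 0.29 in the V5 IP and 1.39 ± 0.29 in the GFP IP (SE, limma adjusted p = 0.0298 and 0.0103). The calls of Hoxb9, Hoxc4 and Hoxd8 over input were each lost without input replicate 1, without input replicate 2 and without replicate 1 of the IP concerned. Without V5 IP replicate 2 the Hoxb9 call in the V5 IP was lost too. The highest limma adjusted p of a Hox gene called in these 2 comparisons, with 1 array left out, was 0.221, for Hoxb9 in the V5 IP. At the low end, Hoxa7 lay at -0.21 ± 0.24 and Hoxb7 at -0.03 ± 0.24 in the V5 IP over input, and Hoxa3 lay at -0.02 ± 0.37 and Hoxb13, a gene of the tail and prostate, at 0.01 ± 0.38 in the GFP IP over input (SE).

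**Figure D5:**
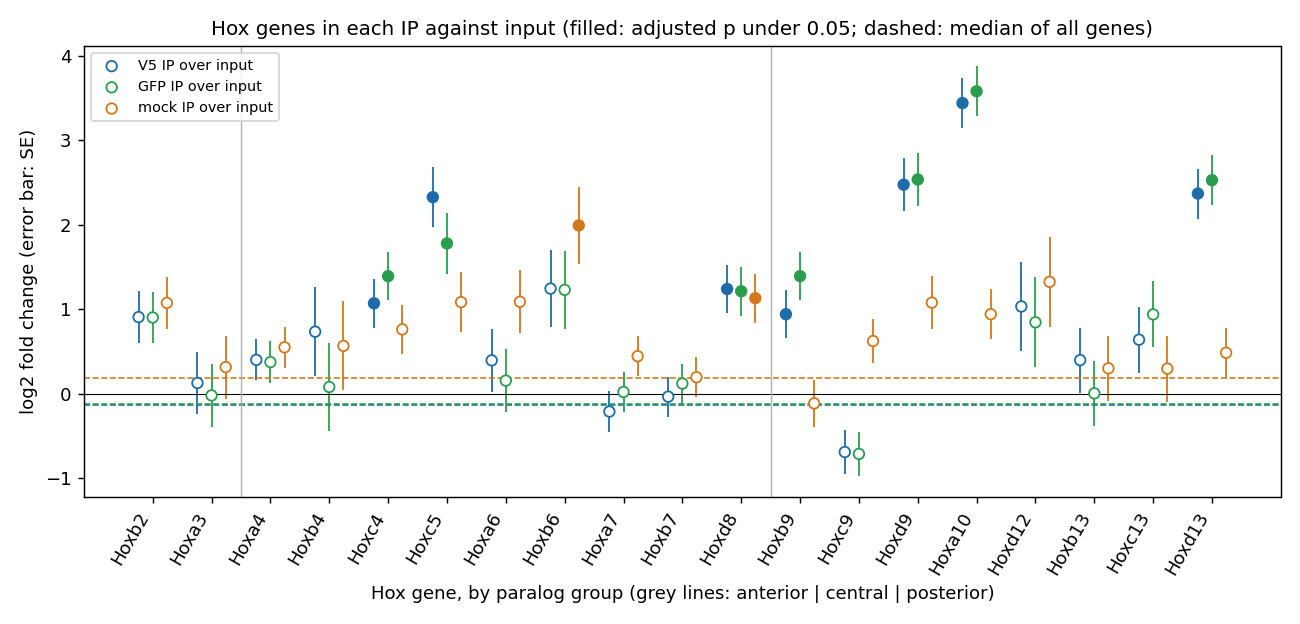
Log2 fold change of 19 of the 20 tested Hox genes over input (vertical axis, error bars are the SE of the fit) in the V5 IP, GFP IP and mock IP, from left to right for each gene. Filled points passed an adjusted p under 0.05, and dashed lines mark the medians of all genes (-0.13, -0.12 and 0.19). Mock IP lies above input for 18 of these 19 genes, with 2 of them called, and for 11279 of all 19032 tested genes.

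Mock IP also differed from input for Hox genes. By limma, 2 of 20 Hox genes were higher in the mock IP (Hoxb6 and Hoxd8) and 0 were lower, where 6.41% of all genes were called higher and 4.23% lower. At an unadjusted p under 0.05, 10 were higher and 0 lower, where 20.1% of all genes were higher and 12.9% lower. The log2 fold change was above 0 for 19 of 20 Hox genes and for 11279 of all 19032 tested genes. The median was 0.60 over the Hox genes against 0.19 over all tested genes. With no filter on dim probes, the median over all 38 Hox genes was 0.69 against 0.37 over all genes. Under the normexp alternative described below, the median of the tested Hox genes was -0.24 against -0.12 over all tested genes. Hoxb6 lay at 1.99 ± 0.46 (SE, limma adjusted p = 0.04), but its second probe gave 0.27 and did not pass (limma adjusted p = 0.609 with each probe fitted on its own). Hoxd8, with -4.26 and -4.75 in the V5 IP, -4.46 and -4.60 in the GFP IP, -4.77 and -4.45 in the mock IP and -5.50 and -5.99 in input, lay at 1.13 ± 0.29 (SE, limma adjusted p = 0.0487). The Hoxd8 probe was well above background on 1 of 2 mock IP arrays and 1 of 2 input arrays, and it passed the filter through the DAZL IPs alone. Its DAZL IP and mock IP arrays overlapped, with a log2 fold change over mock IP of 0.11 ± 0.29 in the V5 IP and 0.08 ± 0.29 in the GFP IP (SE). With 1 array left out, the Hoxb6 call in the mock IP over input was lost without input replicate 1, input replicate 2 or mock IP replicate 1 (highest limma adjusted p = 0.212), and the Hoxd8 call was lost in each of 8 fits (highest limma adjusted p = 0.268). Hoxd12 had 1.33 ± 0.53 (SE, limma adjusted p = 0.131), and it passed with the slide as a block (adjusted p = 0.0124). Its probe was well above background on 1 of 2 input arrays, with intensities of 30.8 and 12.2 units in input, so its input level is uncertain. The slide block raised the count to 9 higher and 0 lower, where 20.4% of all genes were called higher and 13.6% lower. With it, V5 IP against input gave 11 higher and 1 lower (19.9% and 24.9% of all genes) and GFP IP against input gave 12 higher and 1 lower (21.5% and 27.3%).

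Every Hox call was lost under 1 alternative, which differs in several steps at once. It takes the mean spot signal and the local background in place of the processed signal, corrects with normexp and adds an offset of 50 units. With it, 0 of 20 Hox genes were called by limma in any of the 5 comparisons. At an unadjusted p under 0.05, it left 1 higher gene in the GFP IP against input, 1 higher in the mock IP against input and 0 in each of the others. The shares of all genes at that threshold were 12.6% higher and 16.8% lower in the V5 IP and 13.3% and 18.5% in the GFP IP against mock IP, 13.2% and 12.4% in the V5 IP and 13.5% and 11.9% in the GFP IP against input, and 10.2% and 5.08% in the mock IP against input. After adjustment, 5.17% of all genes were called higher and 0.0683% lower in the V5 IP and 6.86% higher and 3.84% lower in the GFP IP against mock IP, 6.5% and 2.03% in the V5 IP and 7.04% and 3.03% in the GFP IP against input, and 0.042% and 0% in the mock IP against input. Which of the steps lost the Hox calls was not tested. With normexp, Hoxd13 lay at 0.51 in the V5 IP and 0.98 in the GFP IP over mock IP, and Hoxa10 at -0.09 in the V5 IP and 0.69 in the GFP IP.

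Genes that act with or on the Hox clusters were taken as lists. The TALE proteins bind DNA together with Hox proteins, and of 9 tested genes, 2 were higher and 1 lower in the V5 IP and 3 were higher and 1 lower in the GFP IP, against mock IP. This list and those that follow stand beside the shares of the whole array, 14.5% higher and 21.7% lower for the V5 IP and 16.3% and 26.6% for the GFP IP. Pbx3 lay at 1.59 ± 0.28 and Meis2 at 1.73 ± 0.33 in the V5 IP over mock IP (SE, limma adjusted p = 0.00949 and 0.0131). Meis3 lay at -1.20 ± 0.35 (SE, limma adjusted p = 0.0361) and Pknox2 at -0.73 ± 0.50 (SE, limma adjusted p = 0.265). Of 13 tested regulators of Hox transcription, 2 were higher and 0 lower in the V5 IP, with 2 higher and 1 lower in the GFP IP. Kmt2a, a histone methyltransferase that maintains Hox expression, lay at 1.12 ± 0.25, and Ctcf, which binds boundaries within the clusters, at 1.04 ± 0.27 (SE, limma adjusted p = 0.0197 and 0.0266), both in the V5 IP over mock IP. Cyp26a1, which breaks down retinoic acid, lay at -0.93 ± 0.32 and the retinoid receptor gene Rxra at -0.63 ± 0.22 (SE, limma adjusted p = 0.0522 and 0.0533). Of 7 tested homeobox genes beside or related to the clusters, 3 were higher and 0 lower in each IP.

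Among those homeobox genes, Gsx2, a forebrain gene of the ParaHox group, had 1.43 and 0.89 in the V5 IP, 1.35 and 1.04 in the GFP IP, -1.85 and -1.76 in the mock IP and -2.86 and -2.71 in input. Its log2 fold change over mock IP was 2.96 ± 0.27 in the V5 IP (SE, limma adjusted p = 0.0021). Evx2, the neighbour of Hoxd13 at the end of the HoxD cluster, lay at -0.63 ± 0.45 in the V5 IP over mock IP (SE, limma adjusted p = 0.288), while Hoxd13 beside it was called higher.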

How the data were processed

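The data are 8 Agilent mouse arrays of 1 colour (Cy3), 2 for each of V5 IP, GFP IP, mock IP and input. Per the file headers, Feature Extraction 9.1.3.1 gave linear spot intensities, background-subtracted and detrended. Per the file headers, the authors' deposited table of the whole series holds background-subtracted signal values normalized to the median, and its deposited quality score was used here only to match its entries to spots (44985 of 45018 matched 1 spot at a tolerance of 1e-05). No source used here names the genome build of the array annotation.

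Processed intensities were taken to log2 and scaled to the 75th percentile of each array's gene spots, and spots of a probe were averaged with outlier spots left out. A probe was detected when over 50% of its spots were well above background. It was kept when detected on both arrays of any group (28103 of 41174), and the brightest kept probe over the 8 arrays stood for its gene. Gene names were updated with the RefSeq table of GRCm38.p6. That table's coordinates were used only to ask which genes overlap. The test was two-sided limma 3.58.1 (lmFit, eBayes; R 4.3.3) fitted to the 8 arrays together, so the input arrays enter the spread of every comparison, with Benjamini-Hochberg adjustment over 19032 genes. Figures and counts used Python 3.11.15. The fit was tested on simulated data. For a fold written "at least", each array of the dimmer group took the probe's own signal or, if higher, the lowest signal of any detected probe, and the mean of these was compared with the brighter group's mean. Precision is limited by the number of arrays.

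Replicate numbers pair the samples: the file headers place replicate 1 of each group on 1 slide and replicate 2 on another, scanned apart, and deviations of same-numbered arrays correlated at 0.299 to 0.778 between groups. The blocked value is printed where it moves a count by over 1.5 times and for some of the genes whose call it changes. The blocked counts include the other such genes, among them Hoxb6 in both DAZL IPs over input.

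The members, the lists and the alternatives were chosen with earlier results of these data known. In each IP against mock IP, the 5 highest and 5 lowest tested Hox genes were named, in other comparisons 3 and 3, with the 6 of highest input signal and, per list of related genes, the 2 highest and 2 lowest by moderated statistic in V5 IP against mock IP. Alternatives were quantile normalization, normexp (offset 50), the deposited table as log2 of the signal plus 0.1, centring, other filters, other rules for probes, the compared groups alone, the slide as a block and leaving out each array. Some genes that this rule or the lists select are not reported here by name and are left out of the figures, while counts and medians include them. No sequences are shown, because probe sequences are not among the sources used here.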

Additional observations from a re-analysis of the deposited data

Results flagged for a closer look

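Among Hox probes that were left out of the main test because they were detected on too few arrays, 2 were well above background on a DAZL IP array and on no mock IP or input array. The Hoxc6 probe was well above background on V5 IP replicate 2 and GFP IP replicate 2. Its highest intensity was 31.6 units, on GFP IP replicate 2. A Hoxc10 probe was well above background on GFP IP replicate 2 alone, at 29.6 units, while the second Hoxc10 probe was detected on no array. Each of these signals was on slide 2 and none was on the slide 1 arrays of the same antibody. The V5 IP mean lay below the mock IP mean for both, at -6.56 against -6.17 for Hoxc6 and -7.71 against -7.46 for Hoxc10, as normalized log2 signal. Hoxa2, also left out of the main test, had 4.02 and 136 units in the V5 IP, 3.78 and 19.2 in the GFP IP, 4.42 and 18.6 in the mock IP and 4.40 and 12.6 in input, and was well above background on replicate 2 of each of the 3 IPs.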

How the results depend on the processing

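Each comparison was recomputed under the alternatives. With normexp, the count of called Hox genes was 0 in all 5 comparisons, as given with its unadjusted counts above, and the cause was not tested. With the slide as a replicate block, which uses the pairing of arrays, the counts were 9 in the V5 IP and 9 in the GFP IP against mock IP, 12 in the V5 IP and 13 in the GFP IP against input, and 9 in the mock IP against input. For mock IP against input, the count of 2 became 1 with the deposited table, 1 with the mean of kept probes, 1 with every kept probe on its own, and 0 by limma when centred on the median, with no filter on dim probes or with only the 2 groups compared (7, 14 and 8 at an unadjusted p under 0.05). With no filter, only 58 of 27677 genes were called higher and 61 lower in this comparison, so few genes of any kind were called. Chosen after seeing the data, the count over genes that did not pass the filter through the IPs alone was 5 in the V5 IP and 5 in the GFP IP against input and 1 in the mock IP against input. All of these were higher, where 13.6%, 15.5% and 6.42% of genes chosen the same way were called higher. The counts for the deposited table, other probe rules and fits without 1 array stand without such shares. Leaving out 1 array gave 2 to 6 calls in the V5 IP against mock IP, 2 to 6 in the GFP IP against mock IP, 4 to 9 in the V5 IP against input, 3 to 9 in the GFP IP against input and 0 to 2 in the mock IP against input. Of 675 values of named genes under alternatives, 575 kept their direction and side of the threshold, 57 lost the call, 16 gained it and 27 changed sign.

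The sign changes were as follows, and for those under normexp, the deposited table and quantile normalization the cause was not tested. In the V5 IP over mock IP, Hoxc5 became -0.12 and Hoxa10 -0.086 with normexp, and Hoxd12 ran from -0.71 to 0.13 over fits without 1 array (0.13 without mock IP 1). In the GFP IP over mock IP, Hoxb4 became 0.16 and Hoxd12 0.17 with normexp. In the V5 IP over input, Hoxa10 became -0.64 with normexp, Hoxa7 0.0058 with the deposited table, and Hoxb7 0.15 with quantile normalization, 0.10 with the deposited table, 0.063 when centred, 0.059 without input 2 and 0.027 without V5 IP 2 (-0.13 to 0.059 without 1 array). In the GFP IP over input, Hoxa3 became 0.16 with quantile normalization, 0.11 with the deposited table, 0.10 when centred, 0.24 without input 1 and 0.30 without GFP IP 2 (-0.34 to 0.30 without 1 array), and Hoxb13 became -0.15 with normexp, -0.36 without GFP IP 1 and -0.012 without input 2 (-0.36 to 0.37 without 1 array). In the mock IP over input, normexp gave Hoxd8 -0.22, Hoxd12 -0.18, Hoxb7 -0.39 and Hoxc13 -0.31, Hoxc13 was -0.17 without input 2 (-0.17 to 0.76 without 1 array), and Hoxb9 was 0.59 with the mean of kept probes and 0.019 without mock IP 1 (-0.24 to 0.019 without 1 array). Of the 49 Hox probes, 19 were well above background on no array, and no fold of their own is given for them.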
